A study of Mus musculus with 564 samples.

Results

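A set of 954 cis-regulatory elements (CREs, stretches of accessible chromatin at promoters and enhancers) lost histone H3 lysine 27 acetylation (H3K27ac) at 2 h and 4 h of interleukin 4 (IL-4). At 2 h and 4 h of lipopolysaccharide (LPS) they stayed within set limits of their starting level, while earlier LPS values were not limited. They were chosen by measured values in vehicle-treated macrophages, from a table of 59190 CREs. For each CRE, D was the log2 of the mean of both DMSO libraries of a stimulus and time, plus 5, minus the same quantity in unstimulated (UT) DMSO libraries. A CRE was kept when its mean UT value was at least 20, when D was at most -0.8 after IL-4 at 2 h and 4 h, and when D lay between -0.8 and 0.8 after LPS at both times. The 954 CREs made up 1.61% of the table and 2.58% of the 36912 CREs that met the UT minimum. A further 1624 CREs were lost after both stimuli by the same limits, 373 were lost after IL-4 and gained after LPS, and 755 were lost after IL-4 with mixed LPS values.

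Primary macrophages (BMDMs) were grown from bone marrow of wild type C57/BL6 mice. They were given DMSO or 1 of 58 clinical kinase inhibitors (CKIs) for 1 h and then left unstimulated or stimulated with LPS or IL4 at 10 ng/mL for 30 min, 1 h, 2 h or 4 h. H3K27ac was measured by chromatin immunoprecipitation and sequencing in 18 DMSO libraries, with 2 per condition, and in 546 CKI libraries, mostly 1 per CKI and condition. The UT label names 4 h without stimulus and the title names 0 h, and each CKI was used at a concentration set for its own intended target, so doses differ between CKIs. Neither the labels nor the methods tell whether libraries of 1 condition came from separate cultures, and p-values measure only the spread between these libraries.

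H3K27ac is placed by the coactivators p300 and CBP, marks active promoters and enhancers, and is removed by histone deacetylases. IL-4 binds a receptor that signals through JAK kinases to the transcription factor STAT6, which directs the alternative activation of macrophages, and STAT6 is also known to act as a repressor at enhancers of inflammatory genes. LPS is sensed by TLR4 and acts through NF-kB, AP-1 and interferon regulatory factors.

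In DMSO UT libraries, all 9 macrophage marker genes had a CRE overlapping 1 kb around a start, with a highest mean value between 226 at Mertk and 1769 at Csf1r. None of the 5 T cell markers had such a CRE, and those of Col1a1, Pdgfra, Flt3 and S100a8 were between 1.5 and 12.5, while the CRE at the neutrophil marker Elane was at 85.5. CREs at the B cell marker Ms4a1 and the dendritic cell marker Xcr1 reached 771 and 296.5, within the range of the macrophage markers, and 1 CRE at each of these genes, like the promoter CRE of Cd14, was itself among the 954. The summed deposited values ranged from 4066894 to 12391409 per library. The contrast of a library, taken as the median value of the highest 10% of CREs over that of the lowest 10%, was 53.0 to 134 in DMSO libraries and 3.34 to 67.2 in CKI libraries.

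The central 300 bases of 5 elements are shown first, since the results below return to these CREs, and they come from mm10 (the GRCm38 reference), plus strand, and the first 3 were picked because they hold matches to factors of macrophage enhancers. The Ets2 and Kctd12 elements had the largest IL-4 losses in CKI libraries at 4 h. Capitals mark TGANTCA (AP-1), TTGCNNAA (C/EBP), GAGGAAGT (PU.1) and TTCNNNNGAA (STAT6-type palindrome), searched on both strands.
Clec4d upstream element, chr6:123252845-123253144: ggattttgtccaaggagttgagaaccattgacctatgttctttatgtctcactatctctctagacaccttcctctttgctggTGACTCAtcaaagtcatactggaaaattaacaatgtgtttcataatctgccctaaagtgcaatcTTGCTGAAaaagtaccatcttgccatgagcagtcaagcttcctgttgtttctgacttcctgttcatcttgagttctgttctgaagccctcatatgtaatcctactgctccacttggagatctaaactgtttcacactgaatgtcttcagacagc
Ptafr downstream element, chr4:132588557-132588856: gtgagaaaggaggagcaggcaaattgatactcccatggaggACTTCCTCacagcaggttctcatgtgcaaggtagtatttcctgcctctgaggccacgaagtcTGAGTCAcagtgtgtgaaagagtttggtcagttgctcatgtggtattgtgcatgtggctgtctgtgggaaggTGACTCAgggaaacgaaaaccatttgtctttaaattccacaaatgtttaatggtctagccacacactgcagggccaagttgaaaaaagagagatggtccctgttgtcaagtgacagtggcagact
Pid1 intron, chr1:84302804-84303103: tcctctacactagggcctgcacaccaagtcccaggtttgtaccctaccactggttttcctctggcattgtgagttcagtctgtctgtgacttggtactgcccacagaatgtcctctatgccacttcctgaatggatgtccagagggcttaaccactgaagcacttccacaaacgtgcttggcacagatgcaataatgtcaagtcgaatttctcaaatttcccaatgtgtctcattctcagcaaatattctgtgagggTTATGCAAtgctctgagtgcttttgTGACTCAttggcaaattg
Ets2 downstream element, chr16:95833371-95833670: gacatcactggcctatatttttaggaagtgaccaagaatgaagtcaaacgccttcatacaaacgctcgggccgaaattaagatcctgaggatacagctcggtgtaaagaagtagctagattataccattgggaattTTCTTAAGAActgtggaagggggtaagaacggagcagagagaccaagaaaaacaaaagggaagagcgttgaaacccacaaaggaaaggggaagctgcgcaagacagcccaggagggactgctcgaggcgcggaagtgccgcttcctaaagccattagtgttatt
Kctd12 upstream element, chr14:103007765-103008064: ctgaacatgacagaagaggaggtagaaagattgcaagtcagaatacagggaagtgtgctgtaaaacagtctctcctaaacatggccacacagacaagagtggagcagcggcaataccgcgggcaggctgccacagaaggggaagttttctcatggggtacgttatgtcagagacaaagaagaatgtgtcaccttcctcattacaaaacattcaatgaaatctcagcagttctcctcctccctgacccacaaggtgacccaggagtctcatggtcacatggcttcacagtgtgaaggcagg
The Clec4d and Pid1 windows each held 1 AP-1 and 1 C/EBP match. The Ptafr window held 2 AP-1 matches and 1 PU.1 match. The Ets2 window held 1 STAT6-type palindrome and the Kctd12 window held none of these letters, which says only that they are not in this stretch.

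The values that chose the CREs are a description and were not tested. Median D over the 954 was -0.33 at 30 min, -0.84 at 1 h, -1.18 at 2 h and -1.14 at 4 h after IL-4, while the medians over the 36912 CREs above the UT minimum were 0.01, -0.05, -0.11 and -0.02. The later values had to be low by the rule, and 125 of the 954 were already at -0.8 or below at 30 min and 516 at 1 h. All 4 late IL-4 libraries were below both UT libraries at 949 of the 954, and 569 met both IL-4 limits in each replicate taken alone. The mean UT value ran from 20 to 1140, with a median of 87.5 against 92.5 above the UT minimum, and the share of CREs chosen was between 2.26% and 2.83% in each quintile of the UT value.

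**Figure D1:**
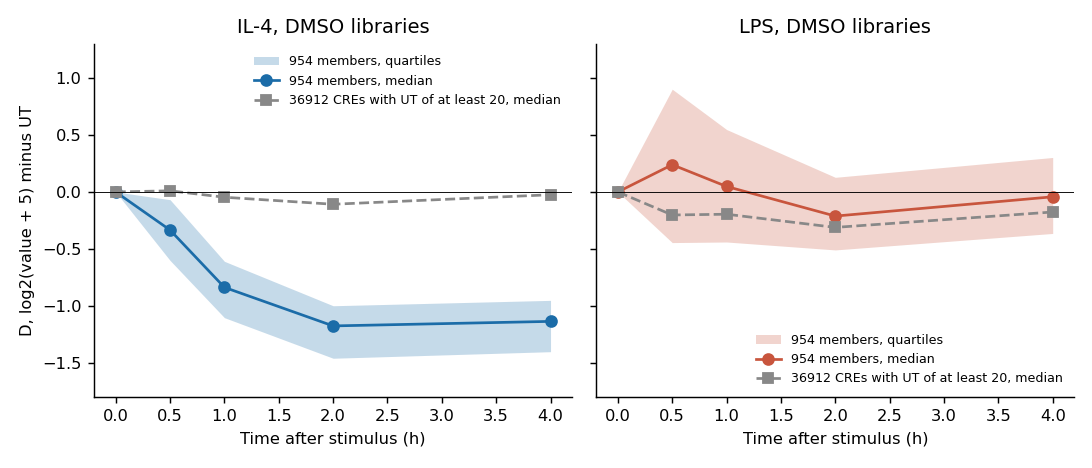
Median and quartiles of D (log2 scale, relative to UT) over the 954 CREs at 30 min, 1 h, 2 h and 4 h after IL-4 (left) and LPS (right) in DMSO libraries, with the median of the 36912 CREs above the UT minimum as grey squares. The IL-4 median reached -1.18 at 2 h, whereas the LPS quartiles spread from -0.45 to 0.90 at 30 min.

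The rule did not limit the early values after LPS. Median D was 0.24 at 30 min, with a range from -2.36 to 2.85, and 277 CREs were at or above 0.8 while 147 were at or below -0.8. Of the 36912 CREs above the UT minimum 5348 and 9225 were past these limits at 30 min, and their quartiles were -0.80 and 0.41. At 1 h, 136 (14.3%) were at or above 0.8 and 115 (12.1%) at or below -0.8, against 14.7% and 27.8%. The rule therefore held CREs with an early LPS peak, CREs with an early LPS dip and CREs near the starting level throughout.

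The IL-4 limit ran through a continuous range. Just inside it were CREs nearest to Rnf141 (D of -0.80 at 4 h), Rab37 (-0.80 at 2 h) and Hif3a (-0.80 at 4 h). Just outside it were CREs nearest to Mapk14 (-0.80 at 4 h, UT 92.5), Mefv (-0.80 at 2 h, UT 129) and Fam213b (-0.80 at 4 h, UT 212.5), each within the last printed digit of the limit.

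The 954 CREs lay mostly away from promoters. Only 35 (3.67%) had their centre within 1 kb of a protein-coding start, against 26.6% of the CREs above the UT minimum. Of the rest, 465 were intergenic, 428 intronic and 26 exonic, and the intergenic share was 48.7% against 30.6%. The median distance to the nearest start was 26461 bp against 11276.5 bp, and 296 (31.0%) were more than 50 kb away, against 19.0%. Median width was alike, 1697.5 bp against 1739 bp. CREs lost after both stimuli had a similar promoter share of 3.82% and a median distance of 32581.5 bp, and no test was made of these differences.

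They also lay near each other. Of the 841 that had another CRE above the UT minimum within 20 kb, 250 (29.7%) had a neighbour from the same set, whereas 1019 of 29943 (3.40%) other CREs had such a neighbour. The 954 were nearest to 690 genes, of which 159 had 2 or more and 60 had 3 or more. Neighbouring CREs can share reads and regulation and were not treated as independent. The genes with the most were Pid1 (8 of its 30 CREs above the UT minimum), Pstpip1 (7 of 10), the predicted gene Gm5426 (7 of 25), Adgrl2 (6 of 31) and Trps1 (6 of 23). Ets2, Tlr2, Ptafr, Nfkbiz, Rasgef1b, Serp2, Nedd4l and F930015N05Rik had 5 each.

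Short sequence motifs were counted in the central 300 bases, as a description. Away from promoters, the AP-1 letters TGANTCA were in 272 of 919 (29.6%) against 21.6% of 27077 CREs above the UT minimum. The C/EBP letters TTGCNNAA were in 18.3% against 16.1%, RUNX (TGTGGTT) in 13.1% against 10.8%, and the nuclear receptor half-site AGGTCA in 22.6% against 19.4%. PU.1 (GAGGAAGT) was in 10.2% against 11.1%, and the MAF half-site TGCTGA in 27.4% against 27.3%. The STAT6-type palindrome TTCNNNNGAA was in 46 of 919 (5.01%) against 9.28%, and the STAT palindrome with 3 spacing bases, TTCNNNGAA, in 9.14% against 10.1%. The NF-kB letters GGGANTTCC were in 1.63% against 1.85%, and SP sites (GGGCGG) in 4.46% against 7.82%. Among all 1624 CREs lost after both stimuli, promoters included, AP-1 letters were in 26.8% and STAT6-type letters in 4.56%, beside 29.1% and 4.93% of the 954. Base composition differed as well, with a median GC content of 45.7% in the 919 and 47.0% in the 27077, and its part in these shares was not tested.

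**Figure D2:**
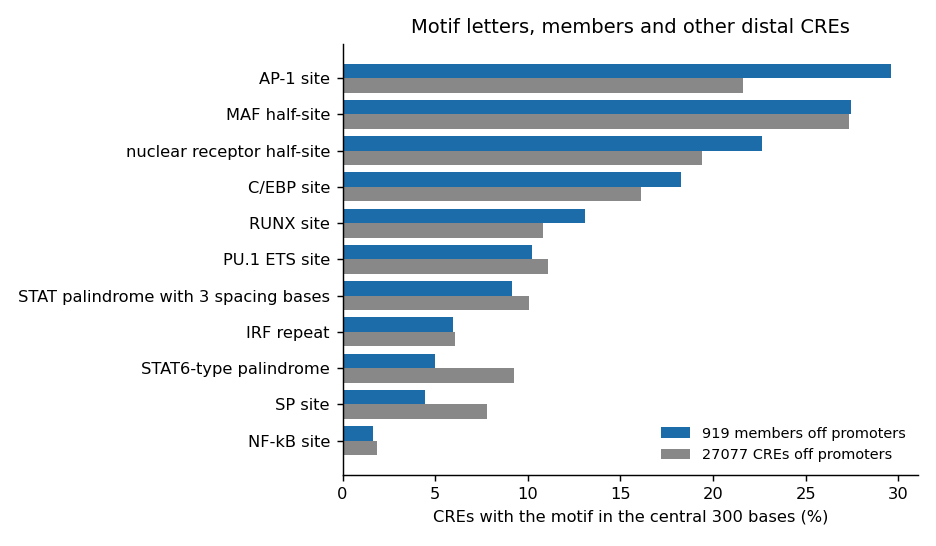
Percentage of CREs away from promoters that hold each set of motif letters in their central 300 bases, for 919 of the chosen CREs (blue) and for 27077 CREs above the UT minimum (grey). AP-1 letters were in 29.6% and 21.6%, STAT6-type letters in 5.01% and 9.28%.

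The CKI libraries, none of which entered the rule, gave a test of the same measure outside the DMSO libraries. In a limma fit with CKI and condition as factors, called at an adjusted p under 0.05 and a log2 difference past 0.5, 806 of the 954 were lower at 2 h of IL-4 than in UT, against a background of 13.4% of 59167 CREs. At 4 h, 770 were lower (background 11.3%), at 1 h 482 (background 6.81%) and at 30 min 182 (background 3.78%). Among CREs above the UT minimum, 20.1% were lower at 2 h and 17.3% at 4 h. Of the 954, 739 were lower at both 2 h and 4 h (background 9.75%). The median difference was -0.83 at 2 h and -0.77 at 4 h (log2), and the median standard error of a single CRE was 0.08. It was -0.51 at 1 h and -0.27 at 30 min. The medians over all tested CREs were 0.00 at 2 h, 0.05 at 4 h, 0.10 at 1 h and 0.12 at 30 min. The median differences at 2 h and 4 h were 0.702 and 0.676 of those in DMSO, which had been used to choose the CREs. Only 4 of the 954 had a difference above 0 at 4 h, nearest to Clec2g, AF067061, Gm21860 and Cyp8b1. These were named after their values were seen.

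The losses recurred from CKI to CKI. Taking each CKI against its own UT libraries, the median over the 954 was below 0 in 56 of 56 CKIs at 2 h and in 53 of 55 at 4 h, and it was below the median of the 36912 CREs above the UT minimum in all of these. A CRE was lower at 4 h in a median of 49 of the 55 CKIs, 446 CREs (46.8%) were lower in at least 90% of them, and 99 (10.4%) were lower in every one. Over the CREs above the UT minimum the median was 28 of the 55, with 10.8% lower in at least 90% of the CKIs and 1.86% in every one. CKIs fall into 6 runs of neighbouring table columns, which was treated as a technical order. Within single runs, 439 to 890 CREs were called at 2 h and 366 to 903 at 4 h, with the lowest counts in run 1. The backgrounds of these calls moved with them, at 6.98% and 5.36% of all CREs tested in run 1 and 19.3% and 20.5% in run 5, which had the highest counts at both times. Run 1 also had the lowest contrast, with a median of 11.2 against 13.1 to 35.1 in the other runs, and the part of the contrast in the count was not tested.

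**Figure D3:**
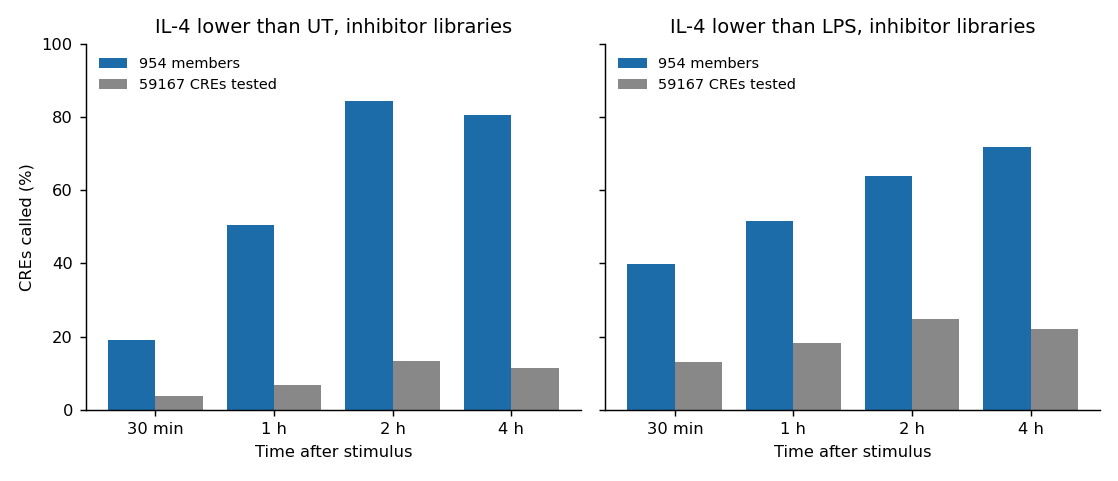
Percentage of the 954 chosen CREs (blue) and of the 59167 CREs tested (grey) called lower after IL-4 than in UT (left) and lower after IL-4 than after LPS (right) in CKI libraries, by time. At 2 h, 84.5% and 13.4% were lower than UT, and at 4 h, 71.9% and 22.0% were lower than after LPS.

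The same libraries were compared with UT after LPS. At 4 h of LPS, 91 of the 954 were lower (background 20.8%) and 60 higher (background 21.1%) than in UT. At 2 h, 202 were lower (background 23.0%) and 25 higher (background 24.0%). These backgrounds include CREs below the UT minimum. Among CREs above it, 32.6% were lower and 16.2% higher at 4 h, and 36.4% lower and 15.2% higher at 2 h. The median differences over the 954 were -0.04 at 4 h and -0.22 at 2 h. Of the 954, 656 were called in neither direction at either time (68.8%, background 47.6%). The LPS limits of the rule were set on the same measure in DMSO libraries. A missed threshold does not show that a CRE stayed the same. Of the CREs lost after both stimuli in DMSO, 93.4% were lower at 4 h of LPS in CKI libraries.

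The direct comparison of the stimuli does not use UT libraries. IL-4 was lower than LPS at 609 of the 954 at 2 h (background 24.7%) and at 686 at 4 h (background 22.0%) in CKI libraries. At 30 min it was lower at 381 (background 13.2%) and higher at 64 (background 22.1%), and at 1 h it was lower at 493 (background 18.2%). Among CREs lost after both stimuli the corresponding shares were 9.91% at 30 min and 3.88% at 4 h, and among the 373 lost after IL-4 and gained after LPS 69.4% were lower at 30 min and all 373 at 4 h, beside 39.9% and 71.9% of the 954. In total 476 of the 954 were lower than UT and lower than LPS at both 2 h and 4 h (background 2.94%), and 355 of these were not called after LPS at either time (background 1.24% for all of these criteria together).

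The early DMSO libraries gave a second check, since no IL-4 or LPS library of 30 min or 1 h entered the rule. Over these 8 libraries 951 of the 954 passed the minimum mean of 10. IL-4 was lower than LPS at 449 of them at 30 min (background 19.9% of 50722) and higher at 89 (background 27.7%). At 1 h it was lower at 607 (background 25.4%) and higher at 28 (background 26.4%). The median difference between the stimuli was -0.55 at 30 min and -0.92 at 1 h, against 0.11 and 0.03 over all CREs tested.

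The 381 CREs that stood higher after LPS at 30 min in CKI libraries were called on the difference between the stimuli. A rise after LPS was not required of each. Their median D after LPS in DMSO was 1.06 at 30 min and 0.03 at 4 h. The 64 that stood higher after IL-4 had a median of -1.21 at 30 min and -0.02 at 4 h. AP-1 letters were in 129 of the 381 (33.9%) and in 10 of the 64 (15.6%), and in 27.3% of the 509 that were called neither way. The median IL-4 difference from UT at 4 h in CKI libraries was -0.85, -0.75 and -0.71 in the 3 classes.

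JAK kinases carry the IL-4 signal, and 6 of the CKIs are known JAK inhibitors. Their concentrations differ, and they were compared as a class with all other CKIs. The other CKIs included Apitolisib and TG100572, whose concentrations had been set for JAK1 and TYK2. The late IL-4 difference, at 2 h and 4 h, did not pass an adjusted p of 0.05 in limma at any of the 954 (background 0.0% of 59150). At an unadjusted p under 0.05 it was higher, that is a smaller loss, at 19 and lower at 2, against 1333 and 464 of all 59150. The median JAK coefficient was 0.08 over the 954 and 0.06 over all CREs. The largest was at a CRE nearest to Nap1l1 (chr10:111392250-111393874, 0.78 with SE 0.31, limma adjusted p = 1.00) and the smallest in an intron of Pikfyve (chr1:65229986-65231544, -0.64 with SE 0.33, limma adjusted p = 1.00).

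Late IL-4 values differed between the 6 JAK inhibitors. The mean of the 2 h and 4 h medians over the 954 was -1.08 with Ruxolitinib, -1.02 with Pacritinib and -0.95 with Tofacitinib. It was -0.59 with Filgotinib, -0.55 with BMS911543 and -0.43 with Momelotinib. Apart from Momelotinib these values lay near those of their runs, whose medians over CKIs were -0.59 in run 1 (Filgotinib and BMS911543), -0.90 in run 3 (Momelotinib), -1.03 in run 4 (Pacritinib and Tofacitinib) and -1.08 in run 5 (Ruxolitinib), and the part of the run was not tested. The other 52 CKIs ran from -1.30 to -0.20 with a median of -0.86, and the JAK inhibitors had a median of -0.77. The CKIs with the smallest losses were X396 at -0.20 and Omipalisib at -0.22, both in run 1. With Momelotinib the median was -0.92 at 2 h and 0.05 at 4 h, and the median over the CREs above the UT minimum was 0.30 at 4 h, so the chosen CREs still stood lower than the rest.

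**Figure D4:**
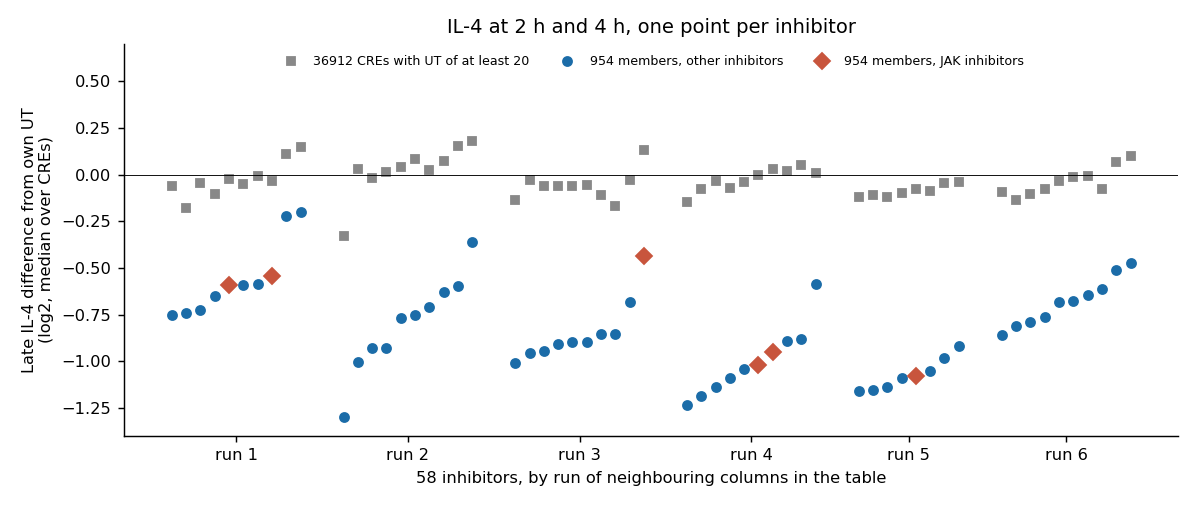
One point per CKI, sorted within 6 runs of neighbouring table columns, showing the late IL-4 difference (mean of the 2 h and 4 h medians, log2, relative to the UT libraries of the same CKI) over the 954 chosen CREs and over the 36912 CREs above the UT minimum. Red diamonds are the 6 JAK inhibitors, which ran from -1.08 to -0.43, within the range of the other 52 CKIs.

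Genes named below are the nearest protein-coding starts, which need not be the genes that a CRE regulates. Among lists of genes by function, those for phagocytic and Fc receptors held the highest share of chosen CREs, 11 of 123 CREs above the UT minimum within 100 kb (8.94%), beside 2.37% over all such CREs. The C-type lectin receptors Clec4d, Clec4e and Clec4n, which sense fungal and mycobacterial surfaces, stood for 6 of the 11, and Trem1, an amplifier of inflammatory signals, for 2. Fcgr1, Fcgr4 and Lrp1 had 1 each.

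The Clec4d locus held the CRE with the lowest mean of the 2 h and 4 h D after IL-4 of all 954. Its element 2.3 kb upstream (chr6:123258334-123261257) had UT values of 446 and 394, then 344 and 287 at 30 min, 125 and 145 at 1 h, 52 and 91 at 2 h and 72 and 67 at 4 h of IL-4. Its LPS values were 767 and 902, 541 and 452, 337 and 316, and 313 and 262 at the same times. Every IL-4 library from 30 min on was below both UT libraries, and both 30 min LPS libraries were above them. In CKI libraries the median was 326 (218 to 632) in UT, 90 (46 to 297) at 4 h of IL-4 and 241 (135 to 449) at 4 h of LPS. The IL-4 minus UT difference at 4 h was -1.77 on the log2 scale (SE 0.07, limma adjusted p = 3.81e-91), lower in 55 of 55 CKIs. The LPS difference was -0.46 (limma adjusted p = 1.89e-10), just under the size needed for a call. The element 9.1 kb upstream, whose sequence is shown above, and the promoter CRE of Clec4d had IL-4 differences of -1.67 and -1.57, each lower in 55 of 55 CKIs. The Clec4n intron CRE, most of which is repeat sequence, had -1.24 (SE 0.09).

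The paired immunoglobulin-like receptor genes Pilrb1 and Pilrb2 followed. Both promoter CREs and 1 further CRE near each gene were in the set. The Pilrb1 promoter CRE (chr5:137857272-137859976) had 329 and 264 in UT, 61 and 70 at 2 h and 42 and 32 at 4 h of IL-4, and 341 and 227 at 4 h of LPS. The 4 late IL-4 libraries were far below both UT libraries, and the LPS values overlapped UT. In CKI libraries the 4 CREs had IL-4 differences between -1.78 and -1.71 at 4 h. The genes are close paralogs, and how reads were split between them could not be checked here.

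Kctd12, which encodes an auxiliary subunit of GABA-B receptors, had 1 CRE 25.3 kb upstream (chr14:103007011-103008817) with the lowest IL-4 difference of all in CKI libraries at 4 h. Its DMSO values were 168 and 167 in UT, 118 and 188, 63 and 78, 28 and 31, and 22 and 37 along IL-4, and 338 and 430, 261 and 280, 152 and 174, and 211 and 170 along LPS. Both LPS libraries were above UT at 30 min and 1 h, and both IL-4 libraries were below UT from 1 h on. The CKI difference was -1.99 (SE 0.08, limma adjusted p = 1.62e-87), lower in 55 of 55 CKIs. The intron CRE of the metal ion transporter gene Slc39a14 had -1.89 (SE 0.08), and the promoter CRE of the glutamate transporter gene Slc17a8 had -1.75 (SE 0.07). CREs nearest to Tnrc6a and Slc41a2, the latter inside Chst11, had -1.74 and -1.73.

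**Figure D5:**
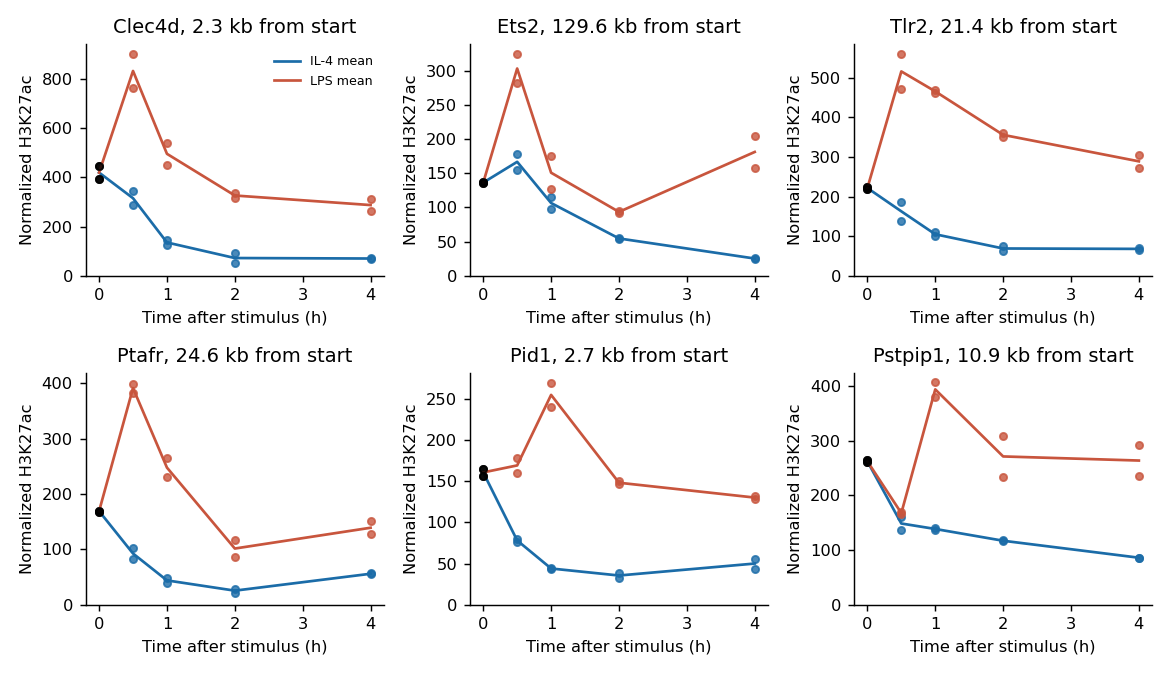
Deposited normalized H3K27ac of 6 chosen CREs in all 18 DMSO libraries (points), with means joined over time for IL-4 (blue) and LPS (red), UT in black at 0 h. By 2 h every IL-4 point lies below both UT points in each of the 6 panels. The LPS course differs, with a peak at 30 min near Clec4d, Tlr2, Ptafr and Ets2 and at 1 h in Pstpip1. Each panel shows the CRE of that gene with the lowest mean of the 2 h and 4 h D after IL-4. In the Pid1, Ets2 and Clec4d panels it is not the element whose sequence is given. The Ets2 panel shows chr16:95830812-95832576. The Pid1 panel shows chr1:84286216-84288505, whose D after LPS was 0.07 at 30 min, -0.11 at 2 h and -0.29 at 4 h.

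Toll-like receptor and NF-kB genes had 11 chosen CREs of 158 (6.96%), nearest to Tlr2, Nfkbiz, Cd14 and Traf6. Tlr2, the receptor of bacterial lipoproteins, had 5 CREs between 14.1 and 43.5 kb from its start. The strongest (chr3:83862293-83864122) had UT values of 223 and 220, IL-4 values of 186 and 139, 110 and 99, 75 and 62, and 64 and 71, and LPS values of 472 and 561, 470 and 462, 351 and 361, and 305 and 273. All IL-4 libraries were below UT and all LPS libraries above it. In CKI libraries its IL-4 difference was -0.98 (SE 0.06, limma adjusted p = 2.93e-44) and its LPS difference 0.19 at 4 h. All 5 were called lower at 2 h and 4 of the 5 at 4 h. The other 4 had UT means of only 20 to 52.

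Nfkbiz encodes IkBzeta, a nuclear IkB protein induced by LPS that is needed for part of the secondary inflammatory response. Its 5 CREs lay between 23.1 and 199 kb from its start, and all 5 were called lower at 2 h and 4 h of IL-4 in CKI libraries. The nearest (chr16:55798219-55799906) had 153 and 161 in UT, 56 and 68, 33 and 49, 37 and 32, and 37 and 27 along IL-4, and 411 and 499, 357 and 345, 236 and 232, and 187 and 160 along LPS. In the early DMSO libraries the IL-4 minus LPS difference was -2.78 at 30 min (SE 0.19, limma adjusted p = 3.13e-13). Of the other 17 CREs of Nfkbiz above the UT minimum, 10 had a D of -0.8 or below at 4 h of IL-4. A promoter CRE was among them at -1.05, where D after LPS was 0.82 at 2 h and 0.65 at 4 h. Another promoter CRE was not, with D of -0.15 after IL-4 and 1.39 after LPS at 4 h.

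Cytokine and chemokine receptor genes had 13 of 183 (7.10%). Ptafr, the receptor of platelet-activating factor, had 5, followed by Il17ra and Il21r with 2 each. All 5 CREs of Ptafr were called lower at 2 h and 4 h, with 4 h differences between -1.50 and -0.63. The element whose sequence is shown above (chr4:132587894-132589518) had 168 and 170 in UT, 82 and 103, 48 and 40, 22 and 29, and 57 and 55 along IL-4, and 383 and 399, 264 and 231, 87 and 116, and 151 and 127 along LPS. It was lower after both stimuli at 4 h in CKI libraries, with differences of -1.50 after IL-4 and -0.76 after LPS (limma adjusted p = 2.42e-20). The Il17ra CRE (chr6:120450836-120455605) went from 331 and 325 in UT to 62 and 63 at 4 h of IL-4 and 265 and 229 at 4 h of LPS, with a CKI difference of -1.43 (SE 0.06). The Il21r CRE (chr7:125595770-125598081) differed in its LPS course, with 142 and 124 at 30 min and 635 and 560 at 4 h, from a UT mean of 409.5. Its CKI differences at 4 h were -0.70 after IL-4 and 0.61 after LPS, both called.

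Ets2, a MAPK-regulated ETS factor, had a group of 5 CREs between 113 and 138 kb downstream of its start. They had IL-4 differences at 4 h between -1.99 and -1.34 in CKI libraries, with all 5 called at both late times. The lowest of these differences was at chr16:95832579-95834461, part of whose sequence is shown above. It had UT values of 211 and 230, then 290 and 263, 176 and 206, 95 and 119, and 54 and 45 along IL-4. Its LPS values were 472 and 483, 281 and 305, 183 and 181, and 376 and 250. Both IL-4 libraries of 30 min were above UT and those of 2 h and 4 h were below it. All 5 had higher 30 min IL-4 means than UT. The Ets2 promoter CRE was outside the set, with a D of 0.44 at 2 h and -0.52 at 4 h of IL-4.

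Pid1, which encodes an adaptor that binds lipoprotein receptor tails, had 8 chosen CREs within 18.3 kb of a start, its promoter included. All 8 were called lower at 2 h and 4 h in CKI libraries, with 4 h differences between -1.42 and -0.69. The intron element shown above (chr1:84302073-84303833) had 164 and 168 in UT, 97 and 85, 56 and 53, 29 and 45, and 49 and 56 along IL-4, and 381 and 460, 395 and 301, 297 and 249, and 262 and 226 along LPS. The promoter CRE had 653 and 710 in UT, 242 and 256 at 2 h and 376 and 324 at 4 h of IL-4. Its loss was largest at 2 h and smaller at 4 h.

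Pstpip1, a cytoskeletal adaptor of the pyrin pathway, had 7 of its 10 CREs in the set. All 7 were called lower at both late times, with 4 h differences between -1.08 and -0.63. The most changed (chr9:56099399-56102284) had 260 and 264 in UT, 161 and 136, 140 and 137, 116 and 118, and 86 and 86 along IL-4, and 170 and 165, 407 and 380, 234 and 308, and 292 and 235 along LPS. Unlike the CREs of Ptafr and Tlr2, all 7 had a 30 min LPS mean below UT, with D between -1.96 and -0.63. The difference between the stimuli at 30 min in DMSO was -0.17 at this CRE (limma adjusted p = 0.375), which is not called, and -1.47 at 1 h (limma adjusted p = 2.53e-09). The Pstpip1 promoter CRE was outside the set, with D of -0.82 at 2 h and -0.79 at 4 h of IL-4 and -0.98 at 2 h of LPS.

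Lipid handling genes had 7 of 131 (5.34%), 4 of them at Abca1, the cholesterol efflux transporter, and 1 each at Ch25h, Nr1h3 and Plin2. The Abca1 promoter CRE (chr4:53157975-53160886) had 305 and 358 in UT, 106 and 127, 76 and 81, 106 and 85, and 108 and 152 along IL-4, and 305 and 339, 182 and 182, 258 and 220, and 225 and 209 along LPS. In CKI libraries its difference was -0.75 at 4 h of IL-4 (SE 0.06, limma adjusted p = 8.27e-33). Of the 4 CREs, 3 were called at 2 h and 2 at 4 h. The intron CRE with the highest level, 787 in UT, had only -0.31 in CKI libraries against a D of -0.88.

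Immediate early genes and feedback inhibitors of MAPK signalling had 10 of 234 (4.27%), at Fos, Dusp1, Klf6, Dusp6, Nr4a1, Spred1 and Spry2. The CRE 45.2 kb from Fos (chr12:85517605-85520584), a subunit of AP-1, had 144 and 140 in UT, 118 and 139, 85 and 110, 62 and 86, and 47 and 46 along IL-4, and 696 and 805, 626 and 624, 211 and 203, and 148 and 110 along LPS. Its CKI difference at 4 h of IL-4 was -1.47 (SE 0.07, limma adjusted p = 5.25e-68). The CRE nearest to Dusp6, a phosphatase of ERK, went the other way early. It had 55 and 55 in UT and 125 and 92 at 30 min of IL-4, then 13 and 15 at 4 h, and it stood higher after IL-4 than after LPS by 1.36 at 30 min in DMSO (SE 0.27, limma adjusted p = 8.34e-05). The Nr4a1 CRE had -0.46 at 4 h in CKI libraries, short of the size for a call.

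Shares between 0.881% and 5.56% were found in the following lists. Macrophage lineage transcription factors had 2 of 227 (0.881%), at Cebpb (-0.87 at 4 h in CKI libraries) and Runx1 (-0.72). Interferon and IRF genes had 1 of 106 (0.943%), lysosome and autophagy genes 1 of 105 (0.952%), cell cycle genes 1 of 95 (1.05%) and glycolysis and hypoxia genes 1 of 89 (1.12%). IL-4 receptor signalling genes had 2 of 91 (2.20%), chemokines and cytokines 3 of 90 (3.33%) and adhesion genes 8 of 238 (3.36%). The IL-4 receptor list entries were CREs nearest to Il13ra1 (-0.82) and Irs2 (-0.90). The chemokine CREs were nearest to Ccl3 (-0.57), Ccl6 (-0.86) and Cxcl1 (-1.24). The list of MHC class II and costimulation genes had 3 of 54 (5.56%), all 3 nearest to Icosl, the ligand of the T cell receptor ICOS, with 4 h differences of -1.08, -0.52 and -0.53.

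The remaining CREs with the lowest D varied in their UT level and in how far the CKI difference fell short of D. The Ifitm6 CRE (chr7:141021470-141023077) had 382 and 411 in UT, 72 and 105 at 4 h of IL-4 and 387 and 393 at 4 h of LPS, with a CKI difference of -1.47 (SE 0.07). The Fbxo11 CRE 58.6 kb upstream had a D of -2.39 and a CKI difference of -1.47, and the Trim24 CRE, at only 34 and 44 in UT, had -2.21 and -1.41. The Cep78 CRE 28.6 kb upstream had -2.17 and -1.06, the Pot1b CRE -2.18 and -0.91, and the Bank1 intron CRE, at 48 and 75 in UT, -2.25 and -0.74. All 6 were called lower in CKI libraries at 4 h.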

How the data were processed

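H3K27ac ChIP-seq values came from 564 BMDM libraries, and members were drawn from 1 table. Single-end reads, trimmed by the authors to 51 bases, were mapped to mm10 with ShortStack, and the submitters' processing notes also name Bowtie and SAMtools. The deposited values are normalized read counts per CRE, scaled by the authors and rounded to whole numbers, and were treated as a score, not as counts. Reads placed among repeated sequences depend on that mapping. Raw depth was not used here, so no counting interval is given.

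The CREs and gene lists were chosen with earlier results of these data known. Tests used limma 3.58.1 in R 4.3.3 on log2(value + 5), with trended moderated variances, a minimum mean of 10 and Benjamini-Hochberg adjustment over all CREs tested. A call needed an adjusted p under 0.05 and a log2 difference past 0.5 (for JAK inhibitors, the adjusted p alone). The CKI fit had CKI and condition as factors, so CKIs stand in for replicates. The JAK fit added products of JAK inhibitor with early and late IL-4. The fits were tested on simulated data with independent noise and no differences between runs. That simulation does not check errors that follow from runs.

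CREs were annotated with the GENCODE annotation on GRCm38 (nearest protein-coding start, promoter within 1 kb). Named CREs were the 12 lowest by mean late D, the 12 lowest at 4 h of IL-4 in CKI libraries, list members (the 4 lowest where a list had more than 4), genes with 3 or more, those nearest the IL-4 limit and the extremes of the JAK coefficient, of which the text gives a part. A few others are named in counts. Alternatives were other pseudocounts, no minimum, quantile normalization, other thresholds, single runs, a replicate block and leaving out libraries or CKIs. A few items are not reported here.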

Additional observations from a re-analysis of the deposited data

How the results depend on the processing

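Counts are of the 954 chosen CREs, in the order 30 min, 1 h, 2 h and 4 h unless stated. Pseudocounts of 1 and 20, no minimum mean, quantile normalization, leaving out libraries with title suffix b and leaving out the 6 JAK inhibitors kept the counts within 1.5 times of those reported, except 290 at 30 min of IL-4 and 36 higher after IL-4 than after LPS at 30 min (64 reported) with quantile normalization, and 34 higher at 4 h of LPS with a pseudocount of 20. Quantile normalization moved the median of all CREs at 30 min of IL-4 from 0.12 to -0.03 and at 1 h from 0.10 to -0.01.

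A log2 threshold of 0.25 gave 510 and 774 CREs lower at 30 min and 1 h of IL-4, and after LPS 444 lower and 104 higher at 2 h and 257 lower and 197 higher at 4 h. A threshold of 0.8 gave 27, 156, 505 and 444 lower than UT after IL-4, 225, 289, 290 and 420 lower than after LPS, and after LPS 43 lower and 5 higher at 2 h and 17 lower and 5 higher at 4 h. These follow from the threshold itself.

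Run 1 alone gave 162, 439 and 366 lower at 1 h, 2 h and 4 h of IL-4, and 237, 282, 225 and 329 lower than after LPS, and run 5 alone gave 289 lower at 30 min. CREs higher at 2 h of LPS were 15, 41, 97 and 46 in runs 1, 2, 4 and 5, and at 4 h 38, 150, 123 and 31 in runs 1, 4, 5 and 6. The cause was not tested. Among named CREs, the 4 h IL-4 difference changed sign in run 1 alone at Bank1 (0.10), 2 CREs of Tlr2 (0.11 and 0.21) and 1 of Ptafr (0.078), and in run 2 alone at 1 CRE of Icosl (0.014).

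The numbers 1 and 2 in the DMSO titles are not said to pair libraries, and deviations of same-numbered early libraries correlated between -0.08 and 0.01. With the number as a replicate block, 446 CREs at 30 min and 603 at 1 h were lower after IL-4 than after LPS, against 449 and 607. Leaving out each of the 8 libraries gave 392 to 453 at 30 min and 525 to 610 at 1 h, and the 28 higher after IL-4 at 1 h became 13 without IL-4 1 h library 2 and 18 without LPS 1 h library 2, the lone library being assumed to vary like the others. JAK inhibitors gave 0 calls under each alternative, with each inhibitor left out and with a run term. At an unadjusted p under 0.05, the 19 higher and 2 lower CREs became 19 and 10 with quantile normalization and 7 and 3 without suffix b libraries, and leaving out 1 inhibitor gave 6 higher and 3 lower (BMS911543) to 51 and 0 (Ruxolitinib). Members near the UT minimum of 20 rest on few reads, and losses there are not precise.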

Other observations

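Values near the IL-4 limit of the rule also differed between replicates. Replicate 1 alone put 895 of the 954 CREs at or below -0.8 at 2 h of IL-4 and 866 at 4 h, and replicate 2 alone put 792 and 782 there. The median difference at 4 h was -1.26 in replicate 1 and -1.09 in replicate 2. Of the CREs that are nearest to genes with 5 or more, those outside the set had a median D at 4 h of IL-4 of -1.71 at Ets2 (5 CREs), -0.86 at Nfkbiz (17), -0.51 at Tlr2 (5), -0.47 at Ptafr (5) and -0.18 at Pid1 (22).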
